A study of Saccharomyces cerevisiae with 22 samples.

Results

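The comparison described here is between glucose steady state and the early hours in glucose in no3AT2, a chemostat culture of budding yeast (Saccharomyces cerevisiae). By its labels the culture received no 3AT, the aminotriazole that inhibits the histidine enzyme His3 by competition with its substrate. The members are 5 of the 22 arrays of the study, chosen by their labels: 3 arrays at steady state in glucose against arrays at 315 h and 328 h in glucose. A sixth array of the culture, at steady state in galactose, has no replicate and serves as a starting point only. All of these arrays carry polyA RNA in Cy5 against a reference pool of glucose and galactose RNA in Cy3. The hours of the steady-state and galactose arrays are not given in the labels.

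The study followed yeast populations in chemostats through a switch of the carbon source. Its other arrays come from the culture no3AT, also without 3AT and measured as total RNA, and from a culture with 40 mM 3AT. By the design of the study, known from its published description, HIS3 was placed under the GAL1 promoter and histidine was left out of the medium. The arrays of no3AT2 sample a single culture, so every p-value measures the spread between arrays of that culture, which may be technical, and the early arrays are also 2 different times.

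In yeast, glucose shuts off the genes of galactose use through repressors, and a gene placed behind a GAL promoter is shut off with them. His3 catalyses a step of histidine synthesis, and amino acid shortage in yeast is answered through Gcn4, a transcription activator of amino acid synthesis genes whose translation rises when uncharged tRNA builds up. Genes of ribosomal proteins and of glycolysis are among the most expressed in growing yeast and follow growth and sugar supply. Values below are log2 ratios of the sample over the pool after each array was centred on its median, so that 1 unit is a 2-fold difference. A change is the mean of the steady-state arrays minus the mean of the early arrays. A gene is called changed at a Benjamini-Hochberg adjusted p under 0.05 in limma's moderated test, run on the 5 arrays over all genes tested.

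Of 6242 genes in the table, 4248 had values on both early arrays and on at least 2 of the 3 steady-state arrays and were tested. Of these, 192 genes (4.52%) rose and 38 (0.895%) fell at steady state relative to early glucose, together 5.41%, and 918 had an unadjusted p under 0.05. All 230 differed by more than 2-fold, with a median change of 1.47 for those that rose, -1.17 for those that fell and -0.03 over all genes tested. Without centring, 202 genes rose and 88 fell, so that 69.7% of the calls were increases, against 83.5% with centring. Over the genes with values on all 5 arrays, 3883 in all, every steady-state array lay above both early arrays for 746 (19.2%) and below both for 721 (18.6%).

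The early arrays were not alike. The genes that rose had median levels of 0.59, 0.80 and 0.37 on steady-state arrays 1, 2 and 3, against -1.47 at 315 h and -0.55 at 328 h. Of these 192 genes, 177 were lower at 315 h than at 328 h, against 47.1% of all genes tested. The 315 h array thus had the lowest median for the genes that rose. These genes were chosen for low early values, so this does not make 315 h the lowest array in general. Of the 38 genes that fell, 25 were higher at 315 h than at 328 h. The SD of the centred values was 0.87 at 315 h and 0.62 at 328 h. With 315 h left out, and the lone 328 h array assumed to vary like the steady-state arrays, 11 genes (0.247%) rose and 0 fell, though all 192 and all 38 kept the sign of their change. With 328 h left out, 337 genes (6.99%) rose and 23 (0.477%) fell, among them 176 and 11 of the genes named by the full comparison. The signs kept without 315 h carry little weight, because these genes were chosen with 328 h among the early arrays. A fit of 17 arrays of all 3 chemostats, which takes its spread from all of them, called 39 genes (0.948%) that rose and 1 (0.0243%) that fell.

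Missing values and the spread differed between the arrays. The share of missing values was 15.5%, 14.9% and 21.3% on the steady-state arrays, against 20.7% at 315 h and 25.3% at 328 h, with 11.7% on the galactose array. The SD of the centred values was 0.63, 0.52 and 0.58 on the steady-state arrays, against 0.87 at 315 h and 0.62 at 328 h. Steady-state arrays correlated with each other across genes at 0.63 to 0.75, the early arrays at 0.71, and steady-state with early arrays at 0.33 to 0.56. Genes over 2-fold apart made up 2.86% to 3.98% between steady-state arrays and 9.27% between the early arrays. Between a steady-state array and 315 h they made up 16.7% to 18.3%, and between a steady-state array and 328 h 5.004% to 13.8%, the lower of these with steady-state array 2 and below the share between the early arrays. Rows that lay 2 places apart in the deposited table had correlated changes (r = 0.29 across rows). For rows 48 places apart r was 0.27, and for rows 24 places apart -0.11. When the local median of neighbouring rows was removed from each value, 187 genes (4.4%) rose and 57 (1.34%) fell. These included 139 of the 192 genes that rose and 21 of the 38 that fell before. The correction removed the pattern only in part. Corrected values 2 rows apart still correlated at 0.25 at 315 h and 0.31 at 328 h, against 0.09, 0.18 and 0.07 on steady-state arrays 1, 2 and 3. The part of this layout pattern in the changes below was not tested otherwise.

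The greatest increases belonged to IDs for which neither the table nor the gene annotation gives a symbol. They were 11 of the 12 leading increases, with YFL-TYA, YAR010C, YCL020W, YBL005W-A, YBL100W-A, YBR012W-A, YML040W, YMR046C, YMR051C, YJR026W and YJR028W as the members. As background, TYA is the name of the gag-like gene of Ty elements, the retrotransposons of yeast, which exist in many near-identical copies. Only YFL-TYA carries that name here, and whether the other IDs share sequence with it or with each other was not examined. The 11 IDs therefore need not be 11 separate signals, and counts of them below are counts of IDs only. IDs with no symbol made up 16.3% of the genes tested and 14.1% of those that rose.

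YMR051C stood at 1.37, 1.99 and 1.69 on the 3 steady-state arrays, against -2.85 at 315 h and -2.62 at 328 h. Both early arrays were low and close together, the steady-state arrays were all high, and the groups did not overlap. Its change was 4.42 (95% interval 3.79 to 5.05, adjusted p = 3.79e-08), and it was 4.30 without 315 h (adjusted p = 0.002). On the galactose array it stood at -0.48, between the groups.

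YJR028W had the highest change of all genes tested, with 1.23, 2.00 and 2.04 at steady state against -3.45 at 315 h and -1.95 at 328 h. Its early arrays lay further apart than its steady-state arrays, and both were below the galactose value of -0.63. The change was 4.45 (95% interval 3.64 to 5.26, adjusted p = 9.89e-07). YJR026W showed early values as close as those of YMR051C, with 1.04, 1.68 and 1.83 at steady state against -2.09 and -1.95 at 315 and 328 h. Its change was 3.54 (adjusted p = 9.89e-07).

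YFL-TYA stood at 1.26, 1.31 and 1.23 at steady state, against -2.27 at 315 h and -0.70 at 328 h. Its steady-state arrays were nearly equal, with a mean of 1.27 ± 0.04 (SD, n = 3), and the early arrays spread over more than 1 unit below them. The change was 2.75 (adjusted p = 0.000157). Over the 11 IDs the median level was 1.29, 1.99 and 1.93 on the steady-state arrays, against -2.66 at 315 h and -0.95 at 328 h, with -0.45 on the galactose array. No early value of the 11 was above -0.58 and no steady-state value was below 0.81. Of the 11, 9 still rose without 315 h, the exceptions being YAR010C (change 2.39, adjusted p = 0.0975) and YCL020W (change 2.14, adjusted p = 0.0552). All of the 12 leading increases passed with neighbouring rows corrected, a step that removed the layout pattern only in part.

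**Figure D1:**
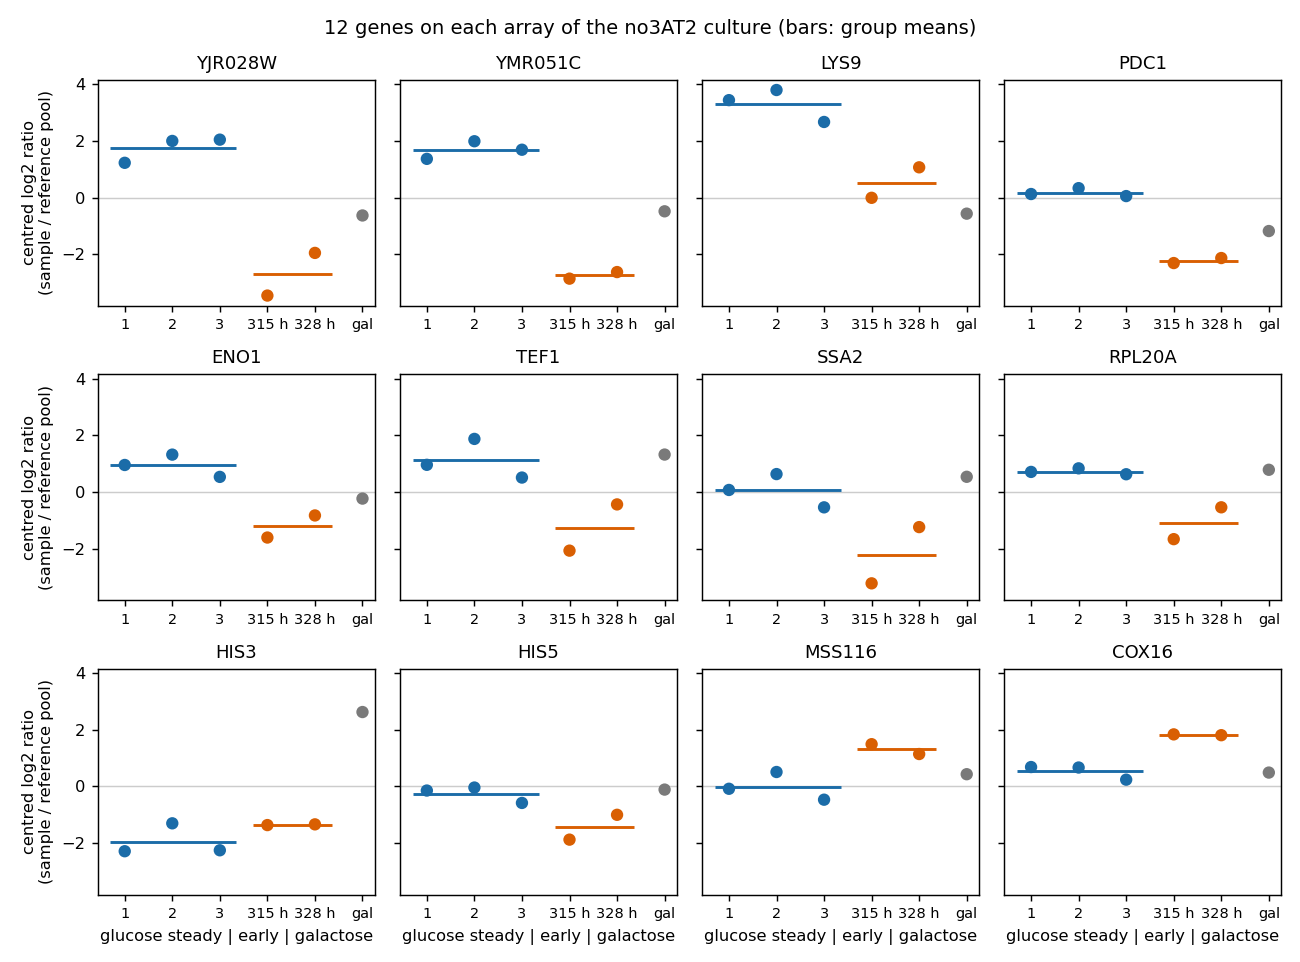
Centred log2 ratios (sample over reference pool) of 12 genes on each of the 6 arrays of the no3AT2 culture. Points are arrays: steady state in glucose 1 to 3 in blue, early glucose at 315 h and 328 h in orange, galactose in grey; bars are group means. YMR051C and PDC1 had early arrays close together and far below steady state, SSA2 and TEF1 had 315 h well below 328 h, and HIS3 was high on the galactose array only.

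Glycolysis and fermentation form the route that splits glucose to pyruvate and turns it into ethanol. Of 21 of its genes tested, 13 rose, against 4.52% of all genes, and 0 fell. The median change was 1.33 against -0.03 over all genes, with 19 above 0 and 2 below. With neighbouring rows corrected 15 rose, and without 315 h 2 rose, PDC1 and PDC6, with a list median of 1.15. The list's median level was 0.55, 0.80 and 0.26 at steady state, against -1.11 at 315 h and -0.50 at 328 h, and -0.09 on the galactose array.

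PDC1 encodes the main pyruvate decarboxylase, which commits pyruvate to ethanol. It stood at 0.13, 0.33 and 0.06 on the steady-state arrays, against -2.30 at 315 h and -2.13 at 328 h. Both early arrays were low by nearly the same amount and neither overlapped with steady state. The change was 2.39 (95% interval 1.78 to 3.00, adjusted p = 5.26e-05), and 2.30 without 315 h (adjusted p = 0.0153). PDC6, a minor isoform, was at -0.21, 0.05 and -0.56 at steady state, against -1.94 and -3.16 at 315 and 328 h. Unlike most genes that rose, it was lower at 328 h than at 315 h, and its change was 2.31 (adjusted p = 0.000727). PDC1 and PDC6 are close in sequence, so their spots may share signal.

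ENO1, an enolase, was at 0.95, 1.32 and 0.53 at steady state, against -1.60 at 315 h and -0.82 at 328 h. All steady-state arrays were above the early ones, and the change was 2.15 (adjusted p = 0.000808). FBA1, the aldolase, changed by 2.05 (adjusted p = 0.00194), with 1.14, 1.53 and 0.95 at steady state against -1.42 at 315 h and -0.26 at 328 h. Without 315 h, ENO1 changed by 1.76 (adjusted p = 0.174) and FBA1 by 1.46 (adjusted p = 0.219). The other members that rose, named after their values were seen, were GPM1, ENO2, CDC19, ADH1, TDH3, PGK1, PFK2, TDH2 and TPI1. These are enzymes of the glycolytic steps and alcohol dehydrogenase, and several are near-identical pairs whose spots may share signal.

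In other lists of sugar and carbon metabolism the calls were near the 4.52% of all genes that rose, so nothing is read from their counts. Of 16 genes of hexose transport and glucose sensing and 9 of gluconeogenesis and the glyoxylate cycle, 0 were called. HXT3, a hexose transporter, was at -0.01, 0.33 and 0.01 at steady state, against 0.95 at 315 h and 0.73 at 328 h, which gave a change of -0.73 (adjusted p = 0.15). In the TCA cycle 1 of 15 rose. It was ACO1, aconitase, at -0.22, -0.29 and -0.76 at steady state against -2.57 and -1.55 at 315 and 328 h, a change of 1.64 (adjusted p = 0.00637). In the respiratory chain and ATP synthase 1 of 29 rose, ATP4, a stalk subunit of ATP synthase, with a change of 1.16 (adjusted p = 0.0234) and 0.72 with neighbouring rows corrected (adjusted p = 0.122).

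Of 127 genes tested in the list of cytosolic ribosomal proteins, 43 rose, against 4.52% of all genes, and 0 fell. The median change was 0.86, with 117 above 0 and 10 below. The list also holds RPP1, which does not encode a ribosomal protein. With neighbouring rows corrected 39 rose, and without 315 h the median was 0.69 and 0 passed. The list stood at a median of 0.76, 0.81 and 0.53 at steady state, against -0.38 at 315 h and 0.03 at 328 h. On the galactose array its median was 0.63, within the range at steady state.

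RPL20A, a protein of the large subunit, was at 0.71, 0.84 and 0.63 at steady state, against -1.66 at 315 h and -0.54 at 328 h. The steady-state arrays lay close to each other and to the galactose value of 0.79, and above both early arrays. The change was 1.82 (95% interval 1.13 to 2.52, adjusted p = 0.00332), and 1.26 without 315 h (adjusted p = 0.226). RPS1A, of the small subunit, changed by 1.89 (adjusted p = 0.00339), RPL11A by 1.88 (adjusted p = 0.00308) and RPS1B by 1.82 (adjusted p = 0.0049). RPS1A and RPS1B are near-identical copies, and such pairs are common in this list.

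Of 26 translation factors tested, 8 rose, against 4.52% of all genes, and 0 fell. The median change was 0.75, with 24 above 0, and 0.56 without 315 h. TEF1, which encodes elongation factor eEF1A, was at 0.96, 1.87 and 0.51 at steady state, against -2.06 at 315 h and -0.43 at 328 h. The steady-state arrays differed among themselves by more than 1 unit but stayed above both early arrays. The change was 2.36 (95% interval 1.47 to 3.26, adjusted p = 0.0032), and 1.55 without 315 h (adjusted p = 0.273). TEF2 encodes the same protein and changed by 2.28 (adjusted p = 0.00115). Whether the spots of these copies share signal was not examined. CAM1, a subunit of the eEF1B exchange factor, changed by 1.83 (adjusted p = 0.00631). YEF3, the fungal elongation factor eEF3, changed by 1.77 (adjusted p = 0.00856), and by 1.52 with neighbouring rows corrected (adjusted p = 0.0604).

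tRNA synthetases, which charge tRNA with amino acids, had a median change of 0.47. Of 18 tested, 5 rose, against 4.52% of all genes, and 0 fell. DPS1, for aspartate, was at 0.47, 0.18 and 0.36 at steady state, against -1.03 at 315 h and -1.09 at 328 h. Its early arrays were nearly equal and its change was 1.39 (adjusted p = 0.0071), and 1.42 without 315 h (adjusted p = 0.176). VAS1, for valine, changed by 1.63 (adjusted p = 0.0082), KRS1, for lysine, by 1.37 (adjusted p = 0.0191) and GRS1, for glycine, by 1.21 (adjusted p = 0.0403).

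Of 71 factors of ribosome assembly tested, 3 rose and 0 fell, close to the 4.52% of all genes, and the median change was 0.03. The 3 were EBP2 (change 1.61, adjusted p = 0.00631), KRI1 (1.58, adjusted p = 0.00631) and DBP2 (1.19, adjusted p = 0.0262). EBP2 and KRI1 are nucleolar proteins of ribosome assembly, and DBP2 is an RNA helicase. RNA polymerases I and III had 0 of 17 called. Mitochondrial ribosomal proteins had a median change of -0.16, with 1 of 36 that rose and 1 that fell. These were MRPL51 (change 1.39, adjusted p = 0.0211) and MRPS9 (-1.17, adjusted p = 0.0356).

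**Figure D2:**
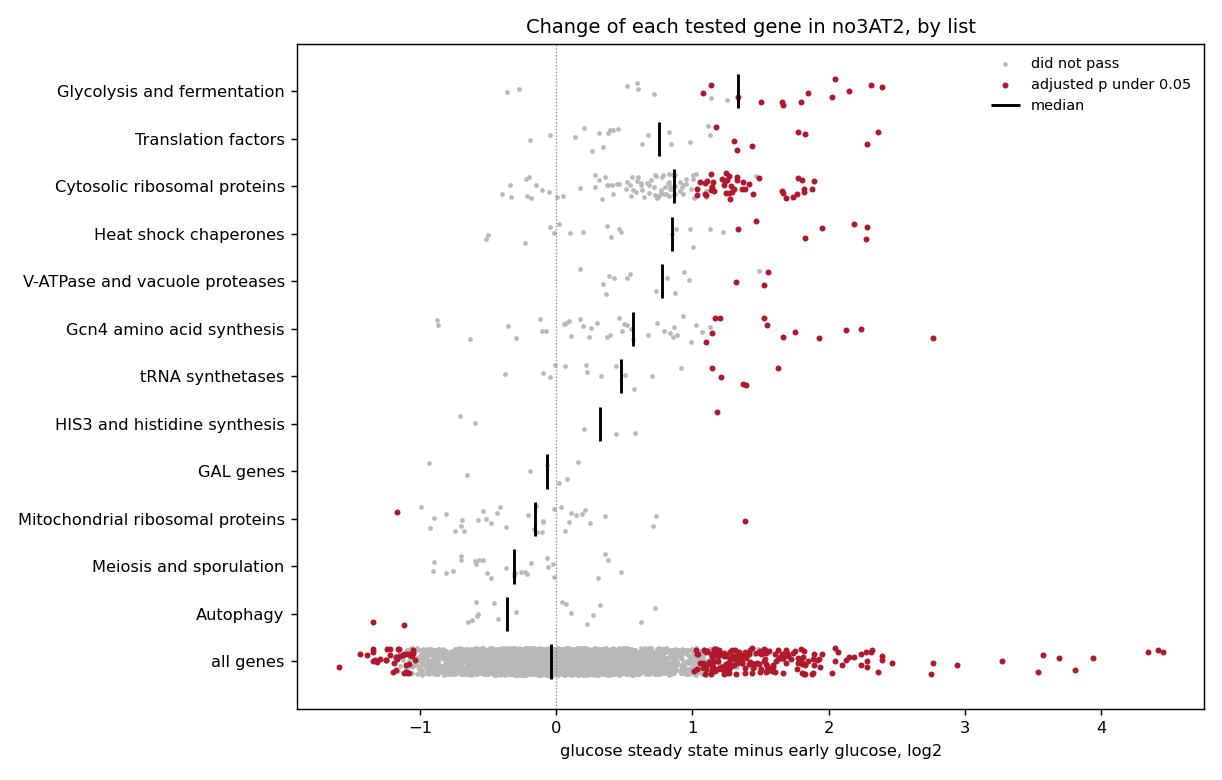
Change of each tested gene in no3AT2 (glucose steady state minus early glucose, log2, x axis) for 12 gene lists and for all genes tested. Red points had an adjusted p under 0.05, grey points did not, and black bars are medians. The medians of glycolysis (1.33), cytosolic ribosomal proteins (0.86) and chaperones (0.85) lie to the right of the median of all genes (-0.03). Those of the GAL list (-0.06), which also holds genes of other names, meiosis (-0.31) and autophagy (-0.36) do not.

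Among amino acid synthesis genes known as targets of Gcn4, the lysine and leucine pathways held most of the increases. Of 49 tested, 12 rose, against 4.52% of all genes, and 0 fell. The median change was 0.56, with 41 above 0. With neighbouring rows corrected 11 rose, and without 315 h 0 passed, with a median of 0.39. Besides 4 lysine genes, LYS9, LYS20, LYS12 and LYS21, the members that rose were LEU2, LEU4, LEU9, LYS1, ILV2, TYR1, TRP5 and TRP3. These last 8, named after their values were seen, belong to the leucine, lysine, branched-chain and aromatic pathways.

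LYS9 encodes saccharopine reductase of the lysine pathway and was the only gene with a symbol among the 12 leading increases. It was at 3.43, 3.79 and 2.67 on the steady-state arrays, against -0.01 at 315 h and 1.07 at 328 h. The steady-state arrays were far above the pool and above both early arrays, while the galactose value was -0.56. The change was 2.77 (95% interval 1.99 to 3.54, adjusted p = 0.000155), and 2.23 without 315 h (adjusted p = 0.13).

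LYS12, homoisocitrate dehydrogenase, was at 1.67, 1.91 and 0.89 at steady state, against -1.03 at 315 h and -0.25 at 328 h. It changed by 2.13 (adjusted p = 0.0013), with no overlap between the groups. LYS20 and LYS21, near-identical homocitrate synthases of the first step, changed by 2.24 (adjusted p = 0.00287) and 1.93 (adjusted p = 0.00284). Both had steady-state array 3 as the lowest of its group, at 0.22 for LYS20 and 0.45 for LYS21.

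Of the histidine genes HIS1 to HIS7, 6 were tested and 1 rose, since HIS2 had no early value. HIS5, the aminotransferase, was at -0.14, -0.04 and -0.58 at steady state, against -1.87 at 315 h and -0.998 at 328 h. The groups did not overlap and the change was 1.18 (95% interval 0.50 to 1.86, adjusted p = 0.0386), but 0.74 without 315 h (adjusted p = 0.33). HIS1 (change 0.58, adjusted p = 0.323), HIS4 (0.44, adjusted p = 0.479), HIS7 (0.21, adjusted p = 0.767) and HIS6 (-0.71, adjusted p = 0.247) did not pass. GCN4 was at 0.20, 0.45 and -0.17 at steady state, against -1.55 at 315 h and -0.40 at 328 h. Its 3 steady-state arrays were above both early arrays, and its change of 1.13 missed the threshold (adjusted p = 0.0598).

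HIS3 itself was low in glucose throughout. It was at -2.28, -1.30 and -2.25 at steady state, against -1.36 at 315 h and -1.33 at 328 h, and at 2.62 on the galactose array. All 5 glucose arrays were below the pool and steady-state array 2 overlapped with the early arrays. The change was -0.59 (95% interval -1.29 to 0.10, adjusted p = 0.313), so that a rise of HIS3 RNA between early glucose and steady state of more than 0.10 lies outside the interval. The interval covers the spread between these arrays only.

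The GAL genes check the carbon source of the galactose array. On it GAL1, the galactokinase, was at 1.91, GAL2, the permease, at 2.18, GAL3, the inducer, at 1.87, GAL7 at 1.27 and GAL10 at 1.15. Each of these was higher there than on every glucose array of the culture with a value. GAL80, the repressor of Gal4, was at -0.05. The GAL list also holds FUR4, MTH1, PCL10 and GCY1, so its median does not describe the GAL genes alone. In glucose 0 of the 7 tested members of this list were called, with a median change of -0.06. GAL1 was at -1.34, -0.31 and 0.04 at steady state, against -0.01 at 315 h and 0.25 at 328 h, a change of -0.66 (adjusted p = 0.305). GAL3 was at -1.11, -0.24 and -0.70 at steady state, against 0.26 at 315 h and 0.24 at 328 h. Its groups did not overlap, and its change of -0.93 did not pass (adjusted p = 0.0873). GAL2, GAL7 and GAL10 had too few early values to be tested. INO1, inositol phosphate synthase, was at 2.74 on the galactose array and showed a change of -0.00 in glucose (adjusted p = 0.995).

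Chaperones of the heat shock group rose in part. Of 25 tested, 7 rose, against 4.52% of all genes, and 0 fell. The median change was 0.85, and 0.34 without 315 h. The list's median level was 0.07, 0.24 and -0.19 at steady state, against -1.29 at 315 h and -0.32 at 328 h.

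SSA2, a cytosolic Hsp70, was at 0.07, 0.63 and -0.54 at steady state, against -3.22 at 315 h and -1.23 at 328 h. Both early arrays were below all steady-state arrays, with 315 h almost 2 units below 328 h. The change was 2.28 (95% interval 1.35 to 3.21, adjusted p = 0.00515), and 1.29 without 315 h (adjusted p = 0.276). SSA1, a close copy, changed by 1.95 (adjusted p = 0.00783), and SSE1, a nucleotide exchange factor for Hsp70, by 2.27 (adjusted p = 0.00481). HSC82, an Hsp90, was at 0.27, 1.31 and -0.03 at steady state, against -3.30 at 315 h and -0.04 at 328 h. Its 328 h value was level with the lowest steady-state array, and its change of 2.18 (adjusted p = 0.0382) was 0.55 without 315 h (adjusted p = 0.598).

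In the vacuole list, the proton pump V-ATPase and the vacuolar proteases, all 16 genes tested were above 0 with a median change of 0.77, while of all genes 1990 of 4248 were above 0. Of the 16, 3 rose, against 4.52% of all genes. They were PRB1, proteinase B (change 1.55, adjusted p = 0.02), and the pump subunits VMA6 (1.53, adjusted p = 0.00631) and VMA1 (1.32, adjusted p = 0.0155). VMA4 was at 0.76, 1.05 and 0.78 at steady state, against -1.90 at 315 h and 0.66 at 328 h. Its low value was that of 315 h alone, and its change of 1.49 did not pass (adjusted p = 0.0732). The list's median was 0.42 without 315 h, with 0 passing.

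Cell wall genes had 6 of 26 that rose, against 4.52% of all genes, and 0 that fell. Their median change was 0.28. PIR3, a wall glycoprotein, was at -1.22, -0.69 and -1.65 at steady state, against -4.63 at 315 h and -2.67 at 328 h. All of these were below the pool, with the early arrays lowest. The change was 2.46 (95% interval 1.56 to 3.37, adjusted p = 0.00284), and 1.48 without 315 h (adjusted p = 0.263). SED1 changed by 1.73 (adjusted p = 0.00631), CRH1, a transglycosylase of the wall, by 1.66 (adjusted p = 0.00454) and HSP150 by 1.61 (adjusted p = 0.00631). SED1 stood at 0.83, 0.73 and 0.84 at steady state, against -1.60 at 315 h and -0.25 at 328 h, so that its steady-state arrays were close together and above both early arrays.

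Ergosterol synthesis had 14 of 15 genes above 0 and a median change of 0.48. In it 2 rose, against 4.52% of all genes, and 0 fell. They were ERG20, farnesyl diphosphate synthase (change 1.70, adjusted p = 0.0144), and ERG13, HMG-CoA synthase (1.66, adjusted p = 0.0071). ERG13 changed by 1.02 with neighbouring rows corrected (adjusted p = 0.112). Oxidant defence genes had a median change of 0.12, and 2 rose with neighbouring rows corrected. Without that correction 4 of 26 rose, against 4.52% of all genes, and 0 fell. These were AHP1 and TSA1, thiol peroxidases (changes 1.69 and 1.44, adjusted p = 0.0365 and 0.0161), OYE2, an NADPH oxidoreductase (1.50, adjusted p = 0.0268), and GLR1, glutathione reductase (1.18, adjusted p = 0.0365). Without 315 h the change of AHP1 was 0.61 and that of OYE2 0.65, and neither passed.

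In the sulfur and methionine list 2 of 15 rose, against 4.52% of all genes, and 0 fell. The list as a whole did not rise, with a median change of -0.10, 7 members above 0 and 8 below. MET32, a zinc finger regulator of methionine genes, was at -0.15, -0.20 and -0.65 at steady state, against -1.77 at 315 h and -1.84 at 328 h. Its early arrays were nearly equal, and its change was 1.48 (adjusted p = 0.00631). SAM2, an S-adenosylmethionine synthetase, changed by 1.26 (adjusted p = 0.0248).

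**Figure D3:**
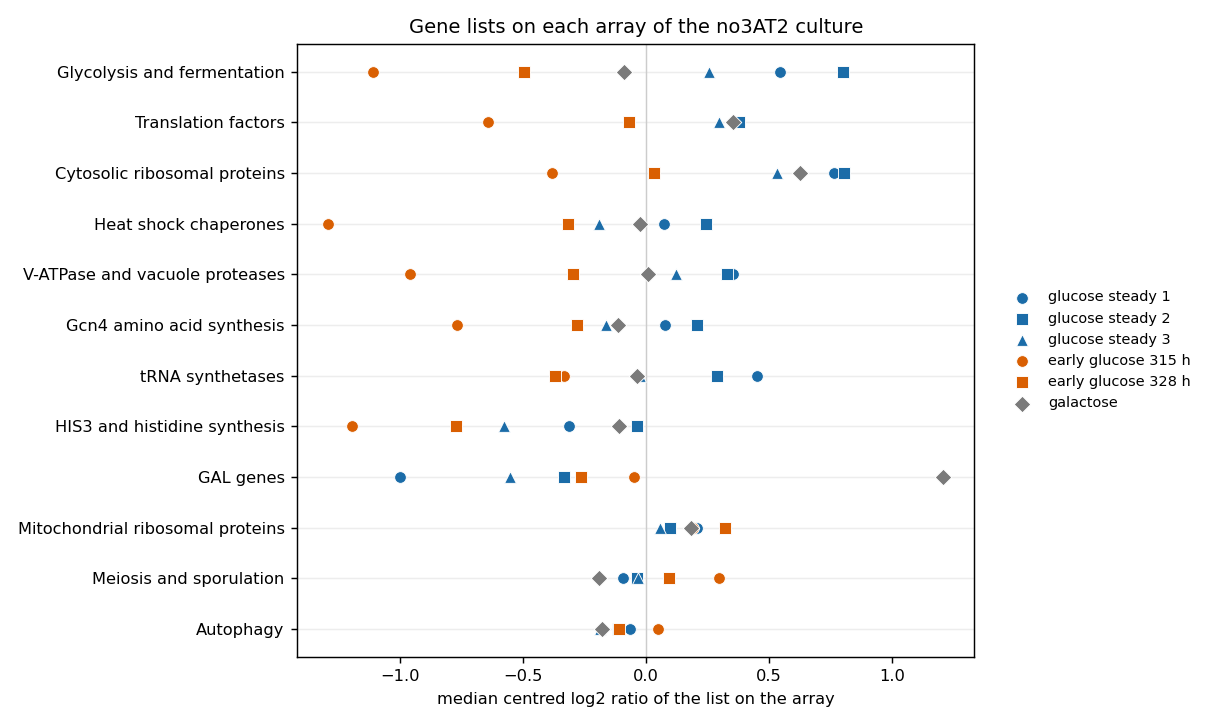
Median centred log2 ratio of 12 gene lists on each array of the no3AT2 culture. Blue marks are the steady-state arrays, orange marks the early arrays and the grey diamond the galactose array. For glycolysis the steady-state medians (0.55, 0.80 and 0.26) lie right of the early ones (-1.11 and -0.50). The GAL list stands apart on the galactose array at 1.21.

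The genes that fell were fewer, and their changes were smaller. Their median levels were -0.04, 0.50 and 0.07 on the steady-state arrays, against 1.47 at 315 h and 1.26 at 328 h, with 0.44 on the galactose array. The medians of the early arrays lay closer together here than for the genes that rose. Of the 38, 25 were higher at 315 h than at 328 h, while 47.1% of all genes tested were lower at 315 h. Small changes pass the test more easily where the early values agree, so nothing is read from this likeness. IDs with no symbol made up 28.9% of those that fell, against 16.3% of the genes tested. None of the 12 leading decreases passed without 315 h, when their changes lay between -1.71 and -1.13, and 10 passed with neighbouring rows corrected.

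YDR149C, an ID with no symbol, had the lowest change, with -0.61, 0.31 and 0.26 at steady state against 1.68 at 315 h and 1.49 at 328 h. Both early arrays were high and all steady-state arrays were below them. The change was -1.60 (95% interval -2.28 to -0.91, adjusted p = 0.00631). MSS116, a helicase for splicing of mitochondrial introns, was at -0.08, 0.51 and -0.47 at steady state, against 1.49 at 315 h and 1.14 at 328 h. It fell by 1.33 (change -1.33, adjusted p = 0.0211).

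COX16, an assembly factor of cytochrome c oxidase, was at 0.69, 0.67 and 0.24 at steady state, against 1.84 at 315 h and 1.81 at 328 h. Its early arrays were nearly equal, and its change was -1.29 (adjusted p = 0.0146). SPO73, needed for spore membrane growth, changed by -1.24 (adjusted p = 0.0228). It was at 0.14, 0.86 and 0.47 at steady state, against 1.84 at 315 h and 1.62 at 328 h.

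SPC1, a subunit of signal peptidase, was at -1.19, 0.09 and -0.86 at steady state, against 0.51 at 315 h and 0.95 at 328 h, and at 1.54 on the galactose array. Its galactose value was above all glucose arrays and steady-state array 2 was the highest of its group. The change was -1.39 (adjusted p = 0.0262), and -1.10 with neighbouring rows corrected (adjusted p = 0.0591). OCA4 (-1.34, adjusted p = 0.0301), ATG45 (-1.34, adjusted p = 0.0274) and YAR047C (-1.44, adjusted p = 0.0312) also had steady-state array 2 as the highest of their group. The remaining leading decreases were YJL188C (-1.32, adjusted p = 0.0378), YBR292C (-1.24, adjusted p = 0.0339), YHR180W (-1.22, adjusted p = 0.0391) and YIL080W (-1.20, adjusted p = 0.0235).

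Few lists held genes that fell. In autophagy 2 of 18 fell and 0 rose, against 0.895% of all genes, with a median change of -0.36. ATG8, which marks the growing autophagosome membrane, was at 0.13, 0.58 and 0.30 at steady state, against 1.66 at 315 h and 1.25 at 328 h, and changed by -1.12 (adjusted p = 0.034). The other was ATG29, named after its values were seen. In the list of general stress and reserve carbohydrates 3 of 22 fell, against 0.895% of all genes, and 0 rose. Its median change was 0.07, with 13 above 0 and 9 below. With neighbouring rows corrected 1 fell and 1 rose. The 3 that fell without that correction were GAC1 (-1.17, adjusted p = 0.0339), RTN2 (-1.08, adjusted p = 0.0434) and GRE2 (-1.05, adjusted p = 0.0487). GAC1 is a phosphatase subunit of glycogen synthesis. In the same list TPS1, trehalose phosphate synthase, showed a change of 1.18 that did not pass (adjusted p = 0.0511). Meiosis and sporulation genes had 0 of 28 called, with 4 above 0 and a median change of -0.31. In these bulk samples fewer cells of a kind and less RNA per cell cannot be told apart.

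The same comparison can be made in no3AT, the first culture without 3AT, between its steady-state glucose arrays (507 h and 526 h) and its earliest glucose arrays (344 h and 353 h). Those arrays carry total RNA, so the kind of RNA and the culture cannot be told apart, and the hours since the switch need not match. The early arrays of no3AT were unlike each other, with r = 0.53 and 24.3% of genes over 2-fold apart. The 344 h array correlated at 0.69 with 507 h and at 0.44 with 526 h. The 353 h array had an SD of 0.9995, against 0.61 at 344 h, and its values 2 rows apart correlated at 0.60, against 0.33 at 344 h. Over 3536 genes with values on all 9 arrays, the change in no3AT2 minus the change in no3AT was above 0 at an adjusted p under 0.05 for 220 genes (6.22%). It was below 0 for 2 genes (0.0566%), YOR082C and KAR5, and 617 genes had an unadjusted p under 0.05. The median difference over all genes was 0.00, and -0.17 with values as deposited. All 220 had a change above 0 in no3AT2 and below 0 in no3AT. Choosing genes by a difference above 0 favours these signs, and neither change had to pass by itself. The share of all genes compared with these signs was not counted. They included 128 of the 180 compared genes that rose in no3AT2, an overlap favoured because the difference contains that change. Across genes the changes of these cultures correlated at -0.24, where genes are not independent replicates.

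For cytosolic ribosomal proteins the median change was 0.86 in no3AT2 and -1.28 in no3AT. Of 117 compared, 74 had a called difference above 0, against 6.22% of all genes compared. The lists counted here held genes that rose in no3AT2. That change is part of the difference, so these counts are no separate support. In no3AT the list's median level was 0.53 and 0.72 at 507 h and 526 h, against 1.67 at 344 h and 1.94 at 353 h. The steady-state levels were thus similar in both cultures, at 0.76, 0.81 and 0.53 in no3AT2, while the early levels were below 0.1 in no3AT2 and far above it in no3AT. In glycolysis and fermentation the median change was 1.33 in no3AT2 and -1.17 in no3AT, with 13 of 21 called. The Gcn4 list had 0.55 in no3AT2 and -0.81 in no3AT, with 16 of 44 called. For tRNA synthetases the values were 0.54 in no3AT2 and -1.20 in no3AT, with 7 of 14 called. For translation factors they were 0.83 in no3AT2 and -0.79 in no3AT, with 7 of 22, and for chaperones 0.85 in no3AT2 and -0.53 in no3AT, with 4 of 23. The GAL list showed -0.06 in no3AT2 and 0.11 in no3AT over 5 genes compared, not all of them GAL genes.

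All 12 leading increases of no3AT2 differed from no3AT. They were chosen by their change in no3AT2, which is part of this difference, so these calls are no separate support. For YJR028W the difference was 5.91 (SE 0.76, adjusted p = 0.000208). In no3AT that ID was at -1.16 and -1.66 at 507 h and 526 h, against -0.92 and 1.02 at 344 h and 353 h. YMR051C differed by 4.98 (SE 0.57, adjusted p = 0.000147). In no3AT it was at -0.26 and -1.41 at 507 h and 526 h, against -0.10 and -0.46 at 344 h and 353 h, with overlapping groups. Over the 11 IDs the change in no3AT lay between -1.46 and -0.46, and 0 of these changes passed in that culture.

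MET32 differed by 4.61 (SE 0.56, adjusted p = 0.000147). In no3AT it was at -0.09 and 0.36 at 507 h and 526 h, against 2.76 and 3.77 at 344 h and 353 h. Its steady-state levels lay near the pool in both cultures, and its early levels were far below it in no3AT2 and far above it in no3AT. Of the histidine genes 3 of 6 compared had a called difference above 0, against 6.22% of all genes. HIS1 differed by 2.81 (adjusted p = 0.00502), HIS4 by 2.18 (adjusted p = 0.0166) and HIS5 by 2.96 (adjusted p = 0.00331). The difference was 0.92 for HIS7 (adjusted p = 0.443) and -0.17 for HIS6 (adjusted p = 0.928), which did not pass. In no3AT, HIS1 was at 0.20 and 0.18 at 507 h and 526 h, against 1.96 and 2.89 at 344 h and 353 h. GCN4 differed by 2.29 (SE 0.57, adjusted p = 0.0166). For HIS3 the difference was 0.67 (SE 0.65, adjusted p = 0.669) and did not pass.

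Of the whole arrays, the steady-state arrays of the cultures correlated at 0.27 to 0.59 across genes and the early arrays at 0.02 to 0.28. The 344 h array of no3AT correlated with the steady-state arrays of no3AT2 at 0.48 to 0.59. Its 353 h array did so at 0.34, 0.42 and 0.19 with steady-state arrays 1, 2 and 3. None of the 12 leading decreases of no3AT2 differed from no3AT at the threshold. Without the 315 h array 59 genes had a called difference above 0, without the 344 h array 425, and without the 353 h array 122.

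**Figure D4:**
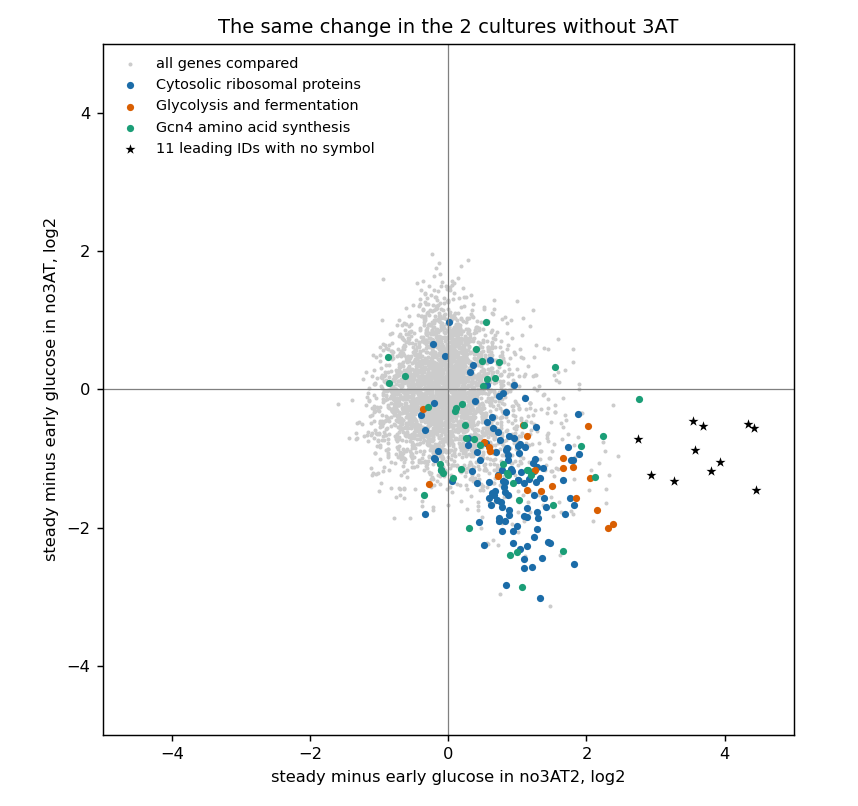
Change from early glucose to glucose steady state (log2) in no3AT2 (x axis) and in no3AT (y axis) for the 3536 genes compared. Grey points are all genes, coloured points are 3 gene lists, and stars are the leading IDs with no symbol. Most ribosomal protein genes lie at the lower right, above 0 in no3AT2 and below 0 in no3AT, as do the glycolytic genes.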

How the data were processed

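RNA of 3 yeast chemostats was measured on 22 two-colour arrays, of which 6 belong to no3AT2. Per the labels, RNA was extracted with hot phenol, the sample was labelled with Cy5 and the pool with Cy3 on every array, and labelling followed a web protocol. For scanning, normalization and spot filters no source used here states a method. The deposited values are treated as log2 ratios, sample over pool: the authors' table is signed and centred near 0, but names no log base, and another base would scale every log2 value. Depth is unknown because no intensities were used, and the number of arrays limits the precision.

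Of 6281 rows, 5763 matched a gene of assembly R64, 57 of them by an older name, and 76 rows that shared a gene were averaged, leaving 6242 genes. No coordinates are printed, since the build behind the arrays is unnamed. Each array was centred on its median, and limma 3.58.1 in R 4.3.3 was fitted with two-sided tests (3 residual and 16 prior degrees of freedom). The difference from no3AT is an interaction contrast over 9 arrays (5 residual and 14.1 prior degrees of freedom). The test was also run on simulated data with noise drawn independently for each gene. Changes of nearby rows were correlated in the real arrays, so that run gives no error rate for these data. In neighbour-corrected values, each value had the median of nearby rows subtracted, 10 before and 10 after in steps of 2.

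Named genes are the 12 leading increases and decreases with values on all 5 arrays, GAL1, GAL2, GAL3, GAL7, GAL10, GAL80, HIS1 to HIS7, GCN4 and INO1. To these come up to 4 members with the greatest change per list described and up to 6 of the greatest differences from no3AT each way. The arrays, the 37 lists and the rules were chosen with earlier results of these data known. Array direction is the labels' dye order. The lowest correlation among the 9 arrays compared was 0.02, and the galactose array correlated with no3AT at 507 h at -0.34. Alternatives were values as deposited, quantile normalization, other filters, another rule for shared rows, a 2-fold minimum, robust and trended moderation, a fit of 17 arrays, neighbour correction, and leaving out each array.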

Additional observations from a re-analysis of the deposited data

Results flagged for a closer look

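The results here drew attention because the change from early glucose to steady state differed between no3AT2 and no3AT by a test of the difference itself (limma's interaction contrast, Benjamini-Hochberg adjusted). The difference is the change in no3AT2 minus that in no3AT, in log2 units. It was above 0 for 220 genes and below 0 for 2 genes. Among the IDs with no symbol it was 5.91 for YJR028W, 4.98 for YMR051C, 4.85 for YMR046C, 4.99 for YML040W, 4.99 for YBL005W-A and 4.23 for YBL100W-A. It was 4.45 for YBR012W-A, 3.997 for YJR026W, 4.60 for YAR010C, 4.18 for YCL020W and 3.46 for YFL-TYA.

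Among genes of amino acid synthesis and its control the difference was 2.90 for LYS9, 2.81 for HIS1, 2.18 for HIS4, 2.96 for HIS5, 2.29 for GCN4 and 4.61 for MET32. The genes below 0 were YOR082C, with -2.54, and KAR5, a gene of nuclear fusion in mating, with -1.84. Neither had a called change in no3AT2. Each kind of RNA comes from 1 of these cultures, so culture and kind of RNA cannot be told apart. Without the 315 h array of no3AT2, 59 genes differed above 0.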

How the results depend on the processing

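No paired analysis was possible because the early arrays carry hours and no replicate numbers. Against 192 genes that rose and 38 that fell, the fit of 17 arrays from 3 chemostats called 39 and 1. Genes that fell numbered 88 with values as deposited and 16 with a filter of 1 value in each phase. Leaving out each array in turn, between 11 and 337 genes rose and between 0 and 90 fell. With neighbour-corrected values, an alternative added after the data were seen, 34 rose and 2 fell without 315 h, 443 and 164 without 328 h, and 28, 60 and 41 rose and 0, 19 and 0 fell without steady-state arrays 1, 2 and 3. With plain values and without the same arrays, the genes that rose were 116, 170 and 156, and those that fell 3, 90 and 3. For the difference from no3AT, against 220 above and 2 below 0, the count below was 12 with quantile normalization, 14 with neighbour-corrected values and 1 with the filter of the first comparison. Leaving out each array gave 59 to 425 above and 0 to 120 below, with 120 without no3AT at 344 h. No result changed sign past the threshold. Of the named genes under the alternatives listed with the methods, 2178 values kept their side of the threshold, 246 lost a call and 39 gained one. The cause of these shifts was not tested beyond what fewer arrays set by construction. Without 315 h most calls were lost, signal over background is unknown, and 1994 genes had too few values to be tested.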

Other observations

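Genes outside the lists described above also rose, and those named here were chosen after their values were seen. STM1, a protein bound to ribosomes, was at 1.23, 1.31 and 1.10 at steady state, against -2.25 at 315 h and 0.20 at 328 h. Its change was 2.23 (limma, adjusted p = 0.0071), and 1.01 without 315 h. ADH3, a mitochondrial alcohol dehydrogenase, changed by 1.93 (adjusted p = 0.0032). PMA1, the proton pump of the plasma membrane, was at -0.21, 0.33 and -0.72 at steady state, against -1.83 at 315 h and -1.19 at 328 h, and changed by 1.31 (adjusted p = 0.0281). TAL1 (1.66, adjusted p = 0.0094) and GND1 (1.46, adjusted p = 0.021), enzymes of the pentose phosphate pathway, rose as well.

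SSB2 and SSB1 encode close copies of a ribosome-bound Hsp70. SSB2 was at 0.80, 1.11 and 0.36 at steady state, against -1.64 at 315 h and -0.94 at 328 h, a change of 2.04 (limma, adjusted p = 0.00111). SSB1 was at -0.89, -0.08 and 0.21 at steady state, against -0.12 at 315 h and 0.20 at 328 h, a change of -0.29 (adjusted p = 0.683). The spots of these copies thus gave unlike values on the same arrays, and their part in the result was not tested. ACT1, actin, was at 0.81, 0.94 and 0.75 at steady state, against 0.83 at 315 h and 0.65 at 328 h.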
